A study of Mus musculus with 8 samples.

Results

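Type I interferon stimulated genes are the genes that cells switch on when interferon alpha or beta reaches their surface. The 40 genes described here were listed by symbol, among them the Ifit, Oas and Mx families, Isg15 and its conjugation system, and the factors Irf7, Irf9 and Stat2. Members are the rows of the deposited count table whose Ensembl gene ID carries one of those symbols in GENCODE M21, and all 40 were found among 26062 gene rows. RNA was sequenced from microglia, the brain's own macrophages, taken from the lateral geniculate nucleus of wild type, male C57BL/6J mice aged 2 to 3 months. Uninjured mice gave 2 libraries, mice sampled 1 day after bilateral optic nerve crush gave 3, and mice sampled 3 days after it gave 3. The crush severs retinal axons whose endings lie in this thalamic nucleus, so the injury is remote from the cells that were collected. Cells were selected with magnetic beads carrying antibody to CD11b, a marker that other myeloid cells share. Whether a library came from a pool or from 1 mouse is not stated in the labels, and every p-value therefore reflects only library-to-library spread, part or all of which may be technical.

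In the canonical pathway, sensors of foreign or misplaced nucleic acid (Rig-I, Mda5, cGAS with STING, and Toll-like receptors) drive transcription of interferon beta through Irf3 and Irf7. Secreted interferon binds a receptor made of Ifnar1 and Ifnar2, and the kinases Jak1 and Tyk2 then activate Stat2, which acts with Irf9 at the interferon-stimulated response element in promoters. Microglia carry this machinery, and an interferon-responsive state has been described for them in ageing, infection and injury.

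Library totals ran from 12700098 to 17994861 counts, and the 40 members took 0.103% to 0.172% of them. Levels below are CPM, the usual depth-normalised read count, after TMM scaling, which sets libraries to a common effective size. All 10 microglial markers passed the count filter. Their summed level was 8301 to 10884 CPM in uninjured libraries, 11824 to 14620 CPM at 1 day and 8305 to 9783 CPM at 3 days. At 1 day the fitted change was above 0 for 9 of 10 markers and below 0 for 1, while at 3 days single markers went both ways. Itgam, which encodes CD11b, rose at 1 day (log2 fold change 1.34). At 3 days 3 of 10 fell: P2ry12 (−0.90), Siglech (−0.79) and Itgam (−0.77). In GENCODE M21 Itgam shares 3450 of its 5024 exonic bases with Gm49368 on the same strand, and reads there cannot be told apart. The fitted change at 3 days was above 0 for 6 of 10 and below 0 for 4. Endothelial markers summed to 1693 to 1847 CPM, 781 to 1056 CPM and 1442 to 1486 CPM, and 7 of 10 fell at 1 day. Choroid plexus and ependymal markers ranged from 517 to 5448 CPM in uninjured libraries, from 1.09 to 56.6 CPM at 1 day and from 619 to 3541 CPM at 3 days. Of 7 monocyte markers, Ly6c2 and Plac8 were at 0 in at least 1 library and at most at 0.722 and 0.521 CPM, and lymphocyte and NK cell markers together reached at most 2.48 CPM. Mural markers summed to 1121 to 1260 CPM, 559 to 639 CPM and 861 to 955 CPM, and monocyte markers, of which 5 were tested, to 581 to 604 CPM, 263 to 306 CPM and 357 to 533 CPM. Border macrophage markers summed to 605 to 735 CPM, 550 to 791 CPM and 397 to 501 CPM, and 5 of 7 were below both uninjured libraries in all 3 day libraries (1 called). Among all tested genes 0.61% rose and 1.16% fell at 1 day. At 3 days 0.983% fell and 19.3% were lower without overlap. Astrocyte markers summed to 119 to 142 CPM, 88.5 to 138 CPM and 63.4 to 76.5 CPM, and neutrophil markers to 31.3 to 37.5 CPM, 47.7 to 141 CPM and 16.8 to 34.8 CPM. Mitochondrially encoded genes took 21.3% to 22.5% of counts in uninjured libraries, 13.6% to 21.9% at 1 day and 22.8% to 30.3% at 3 days, and 21663 to 22395, 18035 to 20220 and 20632 to 21044 genes had a count. The part of these cell types and library properties in the results below was not tested. In RNA from many cells at once, fewer cells of a type and less RNA per cell cannot be told apart.

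Few interferon genes changed beyond the spread between libraries at either time after crush, and as many fell as rose. At 1 day 1 member rose (Slfn2) and 1 fell (Rsad2), and at 3 days 1 rose (Slfn2) and 1 fell (Trim25), by edgeR's quasi-likelihood test with Benjamini-Hochberg adjustment over 17390 genes. Among all tested genes 0.61% rose and 1.16% fell at 1 day, and 2.49% rose and 0.983% fell at 3 days. At an unadjusted p under 0.05, 3 members were higher and 5 lower at 1 day, where 7.3% and 7.47% of all tested genes were, and 2 were higher and 4 lower at 3 days, where 9.21% and 6.6% were. The members' counts are near those shares. The members' median log2 fold change was −0.15 at 1 day and −0.32 at 3 days, beside 0.06 and −0.00 over all tested genes. Both comparisons use the same 2 uninjured libraries, so their values are set side by side and are not independent of each other.

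For most members the fit bounded a rise, and for fewer it bounded a fall. The 95% interval of the log2 fold change lay below a 2-fold rise for 28 of 40 members (70%) at 1 day and for 29 of 40 (72.5%) at 3 days. Over all tested genes that share was 46.2% at 1 day and 42.1% at 3 days. The interval lay above a 2-fold fall for 19 of 40 members at 1 day and for 16 of 40 at 3 days. That share was not computed over all tested genes. Where an interval ends depends on the fitted change as well as on the spread. The members were also less variable than other genes, with a median biological coefficient of variation of 31.2% against 44.0% over all tested genes. Isg15, Dhx58 and Ifit2 were among the members whose interval still reached above a 2-fold rise at 3 days.

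More members sat below the uninjured libraries than above them. At 1 day 11 of 40 members (27.5%) had all 3 libraries below both uninjured ones and 3 (7.5%) had all above, where 15% and 14.3% of all tested genes did so. At 3 days 16 members (40%) were below and 3 (7.5%) above without overlap, where 19.3% and 20.1% of all tested genes did so. Fitted changes were below 0 for 25 of 40 members at 1 day (62.5%, all genes 46%) and for 29 of 40 at 3 days (72.5%, all genes 50.1%). The summed level of the members was 1377 and 1607 CPM in uninjured libraries, 1204 to 1356 CPM at 1 day and 1132 to 1189 CPM at 3 days. Trim25 is the most abundant member in CPM, and without it the sums were 1096 and 1258 CPM, 969 to 1157 CPM and 958 to 1005 CPM, so that 1 day overlapped the uninjured range and 3 days did not. Scaling by library size alone moved the median of all genes to −0.06 at 1 day and −0.15 at 3 days and that of the members to −0.28 and −0.47, and it moved the share of rises among called genes from 34.4% to 16.5% at 1 day and from 71.7% to 56.5% at 3 days.

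**Figure D1:**
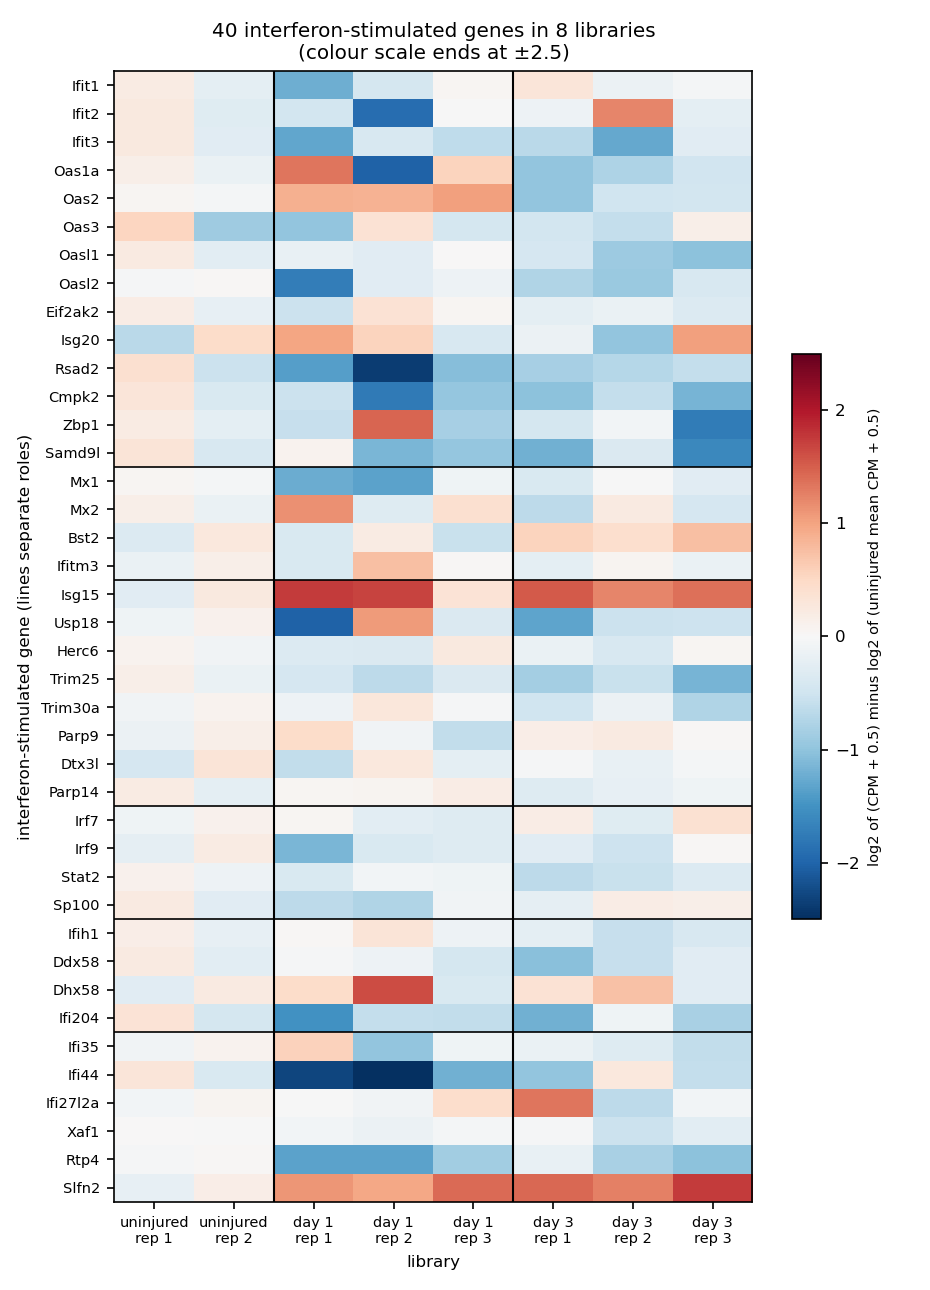
Each row is an interferon-stimulated gene, ordered by role, and each column a library; colour gives log2 of (CPM + 0.5) minus log2 of (the uninjured mean CPM + 0.5). Slfn2 and Isg15 are red in all 6 libraries after crush, and most rows are pale or blue, with 30 to 32 of 40 members below the uninjured mean in each 3 day library.

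The first group by role holds 14 effectors that act on RNA or nucleotides: Ifit1, Ifit2 and Ifit3, which bind viral RNA; the oligoadenylate synthetases Oas1a, Oas2 and Oas3 and their relatives Oasl1 and Oasl2; the RNA-sensing kinase Eif2ak2; the exonuclease Isg20; viperin (Rsad2) and its neighbour Cmpk2, a nucleotide kinase; the Z-nucleic acid sensor Zbp1; and Samd9l, an inhibitor of translation. Of these 14, 0 rose and 1 fell at 1 day, and 0 rose and 0 fell at 3 days by edgeR. Among all tested genes 0.61% rose and 1.16% fell at 1 day, and 2.49% rose and 0.983% fell at 3 days. At an unadjusted p under 0.05, 1 was higher and 1 lower at 1 day, and 0 were higher and 2 lower at 3 days. The shares of all tested genes were 7.3% and 7.47% at 1 day, and 9.21% and 6.6% at 3 days. These shares also stand beside the counts of the groups below. In groups this small, such counts are not read as a result about the role. DESeq2 called Oasl1 lower at 3 days, while limma-voom called none of the 14 then. The group's median log2 fold change was −0.41 at 1 day and −0.69 at 3 days.

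Rsad2, the radical SAM enzyme viperin that restricts viral replication, was the effector that fell at 1 day. Its level was 78.5 and 41.0 CPM in the uninjured libraries, 22.8, 11.1 and 28.2 CPM at 1 day, and 33.3, 36.0 and 39.3 CPM at 3 days. All 6 libraries after crush lay below both uninjured ones, and the 1 day libraries lay below those of 3 days. The log2 fold change was −1.53 (SE 0.36, adjusted p = 0.0464) at 1 day, a 2.88-fold lower level, and −0.72 (SE 0.36, adjusted p = 0.354) at 3 days. The uninjured pair differed by 1.91-fold, and without uninjured replicate 1 the change at 1 day was −0.99 (adjusted p = 0.719). The call was also lost without day 1 replicate 1 (adjusted p = 0.0773) or replicate 2 (0.0599) and without day 3 replicate 1 (0.0754), 2 (0.0671) or 3 (0.0790), which enter through the shared estimate of spread. Cmpk2, the next protein-coding gene to Rsad2, had a fitted change of −1.15 at 1 day and −1.03 at 3 days, with no overlap of groups at either time and adjusted p of 0.519 and 0.562.

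Oas2 makes the oligoadenylates that activate the ribonuclease RNase L. Its level was 8.33 and 7.78 CPM in uninjured libraries, 15.3, 15.1 and 16.9 CPM at 1 day and 3.79, 5.58 and 5.73 CPM at 3 days. The 3 groups did not overlap, with 1 day highest and 3 days lowest. Against uninjured libraries the log2 fold change was 0.97 (SE 0.44, adjusted p = 0.316) at 1 day and −0.68 (SE 0.42, adjusted p = 0.496) at 3 days. Between the times Oas2 fell by 1.65 on the log2 scale (SE 0.39, adjusted p = 0.0149), a 3.13-fold lower level at 3 days. That call was lost without day 3 replicate 1 (adjusted p = 0.0699) or replicate 3 (0.0527).

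Of its relatives, Oasl1, a regulator of Irf7 translation, had 70.3 and 49.7 CPM in uninjured libraries, 52.4, 49.5 and 60.8 CPM at 1 day and 44.5, 31.6 and 29.1 CPM at 3 days. The 3 day libraries were below all others, with a log2 fold change of −0.77 against uninjured libraries (SE 0.26, adjusted p = 0.126) and −0.63 against 1 day (SE 0.23, adjusted p = 0.101). DESeq2 gave the first an adjusted p of 0.0366. Oas1a had a log2 fold change of 0.55 at 1 day and −0.83 at 3 days against uninjured libraries and of −1.38 between the injured groups (adjusted p = 0.842, 0.715 and 0.265), the same signs as Oas2, and ranged from 0.802 to 12.9 CPM among the 1 day libraries alone. Oas3, the least abundant member, ranged from 0.389 to 2.08 CPM over all 8 libraries. Among the Ifit genes, Ifit1 had a mean of 40.1 ± 8.82 CPM in uninjured libraries (SD, n = 2), 29.3 ± 12.2 CPM at 1 day (n = 3) and 41.4 ± 7.06 CPM at 3 days (n = 3), with overlapping groups. Ifit3 was lower without overlap at both times (log2 fold change −0.75 and −0.71, adjusted p = 0.465 and 0.472), although reads of Ifit3 and its near-identical copy Ifit3b may have been divided between them. The same holds for Oas1a with Oas1g and for Trim30a with Trim30d.

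Among the GTPases and membrane restriction factors, 0 of 4 were called at either time by edgeR, DESeq2 or limma-voom, and 0 of 4 passed an unadjusted p under 0.05. Ifitm3, which blocks viral fusion in endosomes, had the highest level per length of all members, 95.7 CPM per kb of exon. Its level was 56.2 and 69.3 CPM in uninjured libraries, 48.0, 106.7 and 64.1 CPM at 1 day and 53.2, 65.8 and 55.9 CPM at 3 days. Day 1 replicate 2 stood above the other 7 libraries, and the groups overlapped. Bst2 (tetherin), which holds budding virus at the cell surface, had 12.3 and 19.1 CPM, then 11.9, 18.1 and 10.5 CPM, then 23.3, 21.1 and 26.9 CPM in the same order. The 3 day libraries were above all others, with a log2 fold change of 0.59 against uninjured libraries (SE 0.37, adjusted p = 0.492) and 0.81 against 1 day (SE 0.33, adjusted p = 0.129). Mx1 and Mx2, dynamin-like GTPases, went opposite ways at 1 day in the fit, at −0.82 and 0.54 (adjusted p = 0.523 and 0.666).

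The group of ISG15 conjugation and ubiquitin genes had 8 members, of which 0 were called at 1 day and 1 fell at 3 days. At an unadjusted p under 0.05, 1 was higher and 1 lower at 1 day, and neither DESeq2 nor limma-voom called a gene of this group then. Trim25, a ubiquitin and ISG15 ligase that activates Rig-I, was the gene that fell. Its level was 348.8 and 281.7 CPM in uninjured libraries, 235.4, 198.8 and 244.7 CPM at 1 day and 173.6, 214.9 and 140.7 CPM at 3 days. All 6 libraries after crush were below both uninjured ones, while the times overlapped each other. The log2 fold change was −0.48 (SE 0.19, adjusted p = 0.242) at 1 day and −0.84 (SE 0.19, adjusted p = 0.0250) at 3 days, a 1.79-fold lower level. The 3 day call did not hold when uninjured replicate 1 (adjusted p = 0.311), replicate 1 of the 3 day group (0.0928) or its replicate 3 (0.114) was left out.

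Isg15, the ubiquitin-like modifier itself, had the largest fitted rise of any member at 1 day without passing the test. It measured 2.40 and 3.71 CPM in uninjured libraries, 11.4, 11.0 and 4.0 CPM at 1 day and 9.74, 7.74 and 8.71 CPM at 3 days. All 6 libraries after crush were above both uninjured ones, though day 1 replicate 3 lay close to uninjured replicate 2. The log2 fold change was 1.52 (SE 0.58, adjusted p = 0.224) at 1 day and 1.51 (SE 0.58, adjusted p = 0.201) at 3 days. Usp18, the protease that removes Isg15 and restrains the receptor, ranged from 0.935 to 11.6 CPM within the 1 day libraries, a 12.4-fold spread. Herc6, the mouse Isg15 ligase, kept within 26.6 to 41.8 CPM over all 8 libraries. Trim30a, Parp9, Dtx3l and Parp14 had fitted changes between −0.46 and 0.14 at both times. Parp9 and Dtx3l share 458 exonic bases on opposite strands, and with no strand setting stated their reads there cannot be told apart.

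**Figure D2:**
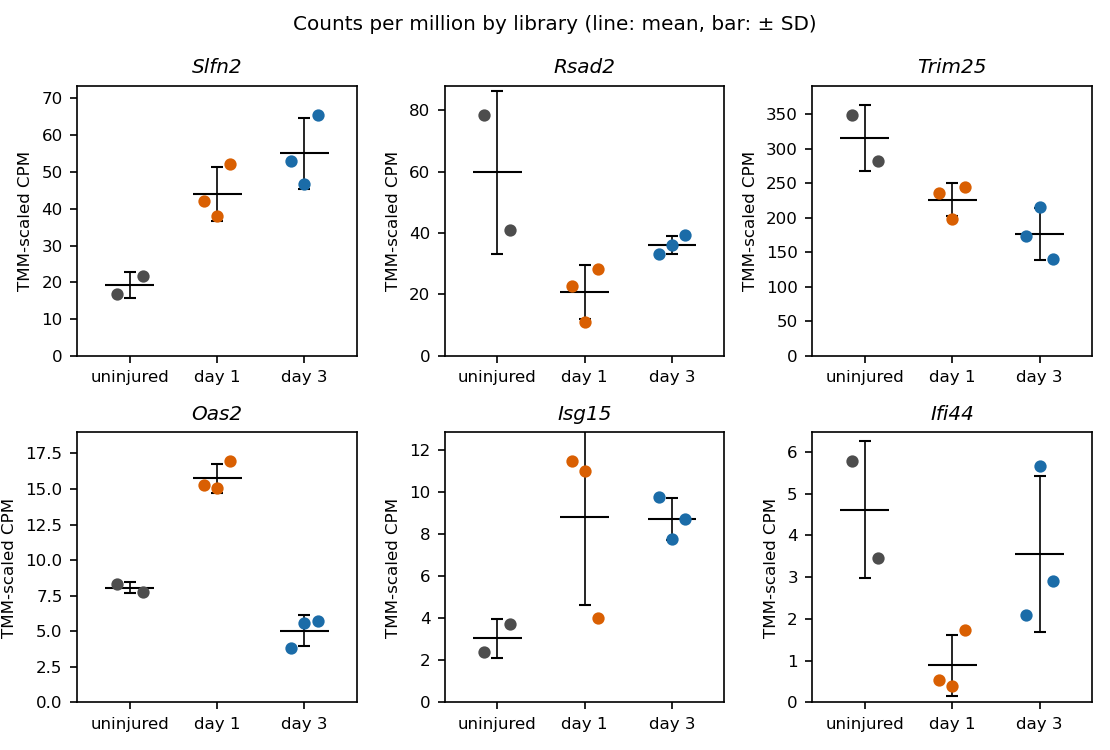
Points are libraries, lines are group means and bars are ± SD of TMM-scaled CPM (2 uninjured, 3 libraries at 1 day and 3 at 3 days) on axes starting at 0. Slfn2 rose at both times, Rsad2 fell at 1 day, Trim25 fell at 3 days and Oas2 was highest at 1 day, while Isg15 and Ifi44 did not pass the test.

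The 4 transcription factors gave 0 calls at either time by edgeR, DESeq2 and limma-voom, with 0 past an unadjusted p under 0.05 at 1 day and 1 lower at 3 days. Irf7, the factor whose induction amplifies interferon output, was at 5.34 and 6.23 CPM in uninjured libraries and between 4.56 and 7.66 CPM after crush. Its log2 fold change was −0.18 (SE 0.54) at 1 day and 0.12 (SE 0.54) at 3 days, with overlapping groups. Stat2 and Irf9, parts of the activating complex, had fitted changes of −0.18 and −0.58 at 1 day and of −0.52 and −0.24 at 3 days (adjusted p at least 0.272). Stat2 at 3 days, at 36.3 to 45.0 CPM, lay below the uninjured 53.0 and 62.2 CPM without overlap. Sp100, a nuclear body protein, was between 22.1 and 44.4 CPM throughout.

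Among the nucleic acid sensors, again 0 of 4 were called at either time by edgeR, DESeq2 or limma-voom. At an unadjusted p under 0.05, 1 was lower at 1 day (Ifi204) and 0 at 3 days. Ifih1 (Mda5), a sensor of long duplex RNA, had 154.8 and 119.8 CPM in uninjured libraries, 139.8, 170.7 and 126.2 CPM at 1 day and 116.5, 91.9 and 103.9 CPM at 3 days. The 3 day libraries were the lowest of the 8, and the difference between the times was −0.48 (SE 0.18, adjusted p = 0.0951). Ddx58 (Rig-I) likewise had its 3 day libraries below both uninjured ones, at −0.61 (SE 0.29, adjusted p = 0.319). Dhx58, their regulator, spanned 4.25 to 18.7 CPM within the 1 day libraries. Ifi204, a DNA sensor from a family of near-identical genes whose reads may be split, had a fitted change of −0.86 at 1 day (adjusted p = 0.324).

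The last group holds 6 other induced genes, and Slfn2 was the member that rose at both times. Slfn2 belongs to the Schlafen family and is known for keeping T cells and monocytes quiescent. Its level was 16.7 and 21.7 CPM in uninjured libraries, 42.0, 38.0 and 52.2 CPM at 1 day and 53.1, 46.6 and 65.5 CPM at 3 days. All 6 libraries after crush were above both uninjured ones, and the times overlapped each other. The log2 fold change was 1.20 (SE 0.27, adjusted p = 0.0385) at 1 day, a 2.29-fold rise, and 1.52 (SE 0.28, adjusted p = 0.00704) at 3 days, a 2.86-fold rise. Leaving out uninjured replicate 1 (adjusted p = 0.144) or day 3 replicate 3 (0.0629) ended the 3 day call. The 1 day call was lost without uninjured replicate 1 (0.522) or 2 (0.0806), day 1 replicate 1 (0.0597) or 3 (0.0801) and day 3 replicate 1 (0.0707), 2 (0.0650) or 3 (0.0820), and under library size scaling (0.0780), with the fitted change between 1.01 and 1.40 in all of these.

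Ifi44, an interferon-induced protein of the cytoplasm, was the member lowest at 1 day in the fit. It had 5.77 and 3.45 CPM in uninjured libraries, 0.545, 0.401 and 1.72 CPM at 1 day and 2.09, 5.66 and 2.90 CPM at 3 days. The 1 day libraries were below all others, with only 40 counts among the 3 of them. The log2 fold change was −2.35 at 1 day (SE 0.85, adjusted p = 0.196) and 1.97 between the times (SE 0.79, adjusted p = 0.127). Rtp4, a chaperone of G protein-coupled receptors, was lower without overlap at both times, at −1.24 and −0.66 (adjusted p = 0.234 and 0.592). Xaf1, a pro-apoptotic factor, stayed within 9.83 to 14.5 CPM. It was also lower without overlap at both times, at −0.09 and −0.27 (adjusted p = 0.960 and 0.815). Ifi35 and Ifi27l2a had overlapping groups at 1 day, and Ifi35 was lower without overlap at 3 days (−0.38, adjusted p = 0.815). Ifi35 shares 290 of its 1727 exonic bases with Gm11626 on the other strand. Shorter overlaps with genes on the other strand touch Oasl1, Eif2ak2, Usp18, Irf7 and Dhx58.

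**Figure D3:**
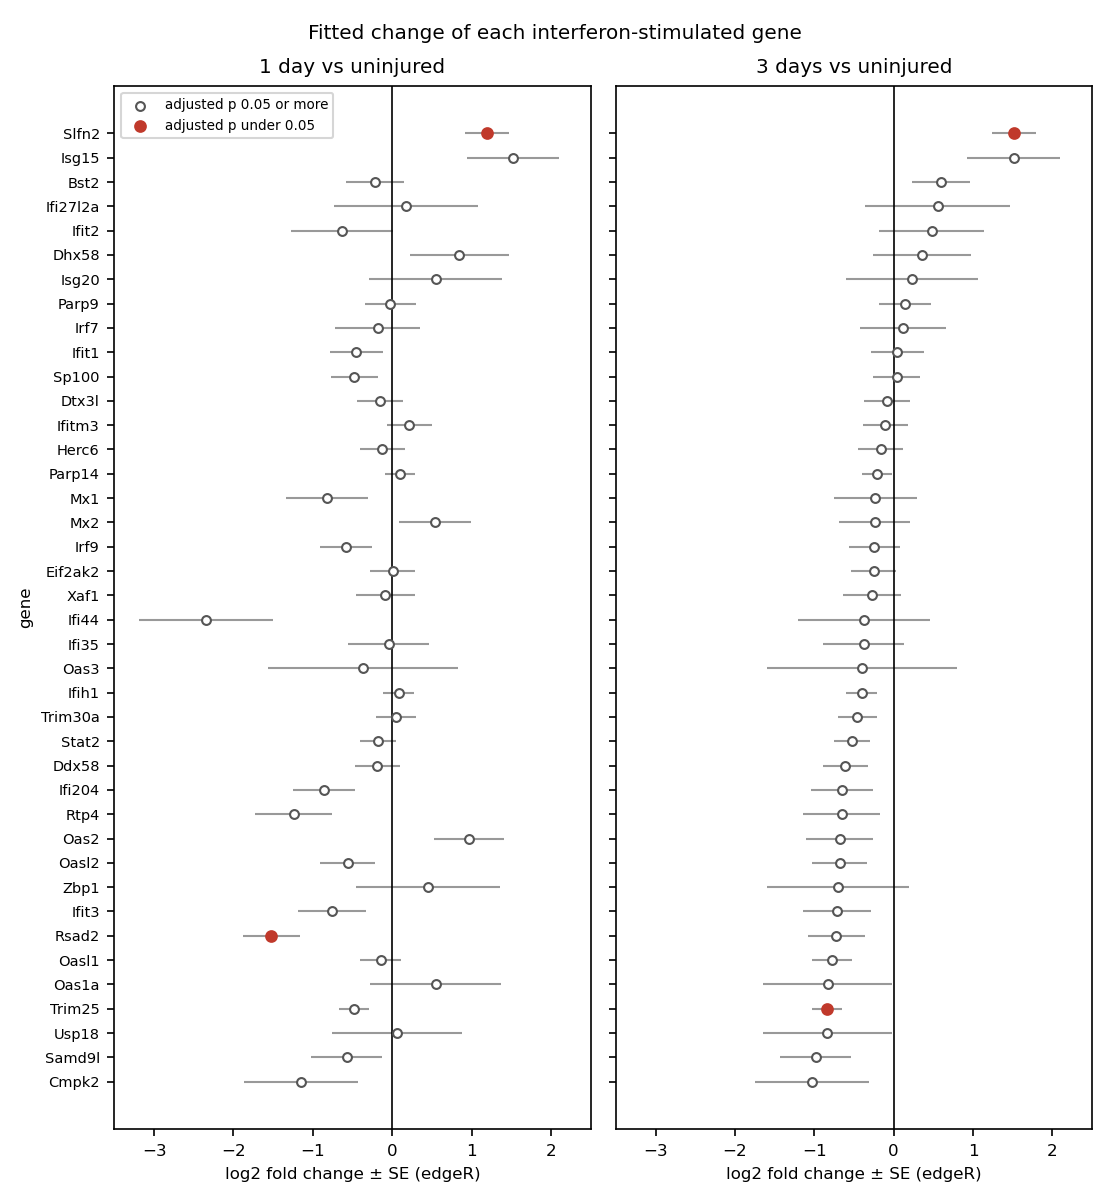
Points give the edgeR log2 fold change of each of the 40 genes against uninjured libraries at 1 day (left) and 3 days (right), bars ± SE, sorted by the 3 day value; filled red points have an adjusted p under 0.05. At each time 1 gene to the right of 0 and 1 to the left are filled, and 29 of 40 points lie left of 0 at 3 days.

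Between the 2 times after crush, 0 members rose and 1 fell (Oas2) by edgeR, and DESeq2 and limma-voom gave the same counts, where 5.24% and 5.75% of all tested genes rose and fell. At an unadjusted p under 0.05, 3 members were higher and 4 lower at 3 days, where 13.1% of all tested genes were higher and 13.1% lower. The members' median was −0.08 (all genes 0.02). Without overlap, 3 members were higher (Rsad2, Bst2 and Ifi44) and 5 lower (Oas2, Oasl1, Trim30a, Parp14 and Ifih1) at 3 days, which is 7.5% and 12.5% of members, where 16.1% and 13.6% of all tested genes were. Without day 1 replicate 2, Bst2 rose, Oas1a and Oas2 fell, and the members' median was 0.13.

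The members varied most among the 1 day libraries, as did all tested genes, whose median spread was larger in each group. The median ratio of highest to lowest library was 1.33 in the uninjured pair, 1.94 at 1 day and 1.52 at 3 days, beside 1.35, 2.26 and 1.71 over all tested genes. Such a ratio tends to grow with the number of libraries, so the value from 2 uninjured libraries is not like for like with those from 3. At 1 day 19 of 40 members differed by over 2-fold between libraries and 7 by over 4-fold: Oas1a, Usp18, Zbp1, Oas3, Ifit2, Dhx58 and Ifi44. Their order among the libraries differed, since day 1 replicate 2 was the highest of its group for Usp18, Zbp1, Dhx58 and Oas3 and the lowest for Oas1a, Ifit2 and Ifi44. The share of mitochondrially encoded counts in day 1 replicate 2, 21.9%, was also the highest of its group. Its neutrophil markers summed to 140.7 CPM, against 50.9 CPM in replicate 1 and 47.7 CPM in replicate 3. Its choroid plexus and ependymal markers summed to 56.6 CPM, against 1.09 and 1.23 CPM, and its endothelial sum, 781 CPM, was the lowest of the group. The part of these properties in the differences was not tested.

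The genes upstream and beside the members were read from 6 lists holding 113 further interferon pathway genes, of which 95 had a row and 91 were tested. Of these 91, 1 rose and 0 fell at 1 day, where 0.61% of all tested genes rose and 1.16% fell. At 3 days 4 rose and 0 fell, where 2.49% of all tested genes rose and 0.983% fell. At an unadjusted p under 0.05, 14 were higher and 2 lower at 1 day (all genes 7.3% and 7.47%), and 9 were higher and 7 lower at 3 days (all genes 9.21% and 6.6%). DESeq2 called 5 higher and 1 lower at 1 day and 4 higher and 3 lower at 3 days, and limma-voom 2 higher and 1 lower at 1 day and 4 higher and 0 lower at 3 days. The median log2 fold change was 0.28 at 1 day and −0.07 at 3 days, beside 0.06 and −0.00 over all tested genes.

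Ifnb1, which encodes interferon beta, had 7.96 and 4.07 CPM in uninjured libraries, 5.45, 11.1 and 5.91 CPM at 1 day and 12.3, 7.82 and 4.36 CPM at 3 days. The groups overlapped, and the log2 fold change was 0.31 (SE 0.59, adjusted p = 0.883) at 1 day and 0.44 (SE 0.59, adjusted p = 0.814) at 3 days. Ifng, encoding type II interferon and named here after its values were seen, had 14 and 28 counts in 2 of the 3 day libraries and 0 in each of the other 6. Of 21 ligand genes listed, 4 had a row, and the others are not analysed here.

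The receptor chains were abundant in every group. Ifnar1 was at 134.8 and 162.2 CPM in uninjured libraries, 173.1, 196.1 and 171.2 CPM at 1 day and 165.5, 147.5 and 183.0 CPM at 3 days (log2 fold change 0.28 and 0.15, adjusted p = 0.507 and 0.756). Ifnar2 averaged 125.5 ± 3.50, 125.2 ± 24.8 and 97.4 ± 24.2 CPM (SD, n = 2, 3 and 3), and was not called either. Jak1, the kinase bound to Ifnar2, had 370.2 and 405.8 CPM, then 557.7, 516.7 and 566.4 CPM, then 301.1, 343.2 and 312.3 CPM, with no overlap between any of the 3 groups. Jak1 fell by 0.78 on the log2 scale between the times (SE 0.13, adjusted p = 0.00151), while its change against uninjured libraries was 0.50 (adjusted p = 0.103) at 1 day and −0.28 (adjusted p = 0.357) at 3 days. Tyk2, the kinase bound to Ifnar1, differed by 0.31 and 0.15 (adjusted p = 0.658 and 0.864).

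Irf1, Irf3, Cgas and Tmem173 (STING), factors and sensors that lead to interferon, were not called in any of the 3 comparisons. Socs1, the feedback inhibitor of Jak1, stayed between 0 and 1.79 CPM. Between the times 15 of the 91 pathway genes fell and 4 rose, where 5.75% of all tested genes fell and 5.24% rose. At an unadjusted p under 0.05, 29 were lower and 8 higher, where 13.1% of all tested genes were lower and 13.1% higher. Among those that fell were Stat3 (−0.69, adjusted p = 0.00491), Jak2 (−0.69, adjusted p = 0.00967) and the interferon gamma receptor chain Ifngr1 (−1.03, adjusted p = 0.00679). The count of 19 called genes was 12 without day 1 replicate 1, 9 without day 3 replicate 1 or without replicate 2, and 5 without day 3 replicate 3, and Ifngr1 (adjusted p = 0.0541) and Jak2 (0.0560) lost their calls without day 3 replicate 3 and replicate 1.

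Against this background 2 chemokine genes rose, both of which can be induced by interferon and also by NF-kB. Cxcl10, a ligand of the receptor Cxcr3, had 61.8 and 67.5 CPM in uninjured libraries, 76.5, 96.9 and 83.1 CPM at 1 day and 204.7, 290.0 and 283.1 CPM at 3 days. The 3 groups did not overlap, and the log2 fold change was 0.40 (SE 0.19, adjusted p = 0.356) at 1 day and 2.00 (SE 0.21, adjusted p = 0.000101) at 3 days. Ccl5, a chemokine that attracts T cells and monocytes, had 22.1 and 19.7 CPM, then 58.6, 46.1 and 32.4 CPM, then 110.4, 98.6 and 115.8 CPM, so its groups did not overlap either. Its log2 fold change was 1.13 (SE 0.26, adjusted p = 0.0387) at 1 day and 2.37 (SE 0.27, adjusted p = 0.000219) at 3 days. Both 3 day calls held with each library left out in turn, while the 1 day call of Ccl5 was lost without any 1 library other than day 1 replicate 3 (adjusted p = 0.0667 to 0.334), under library size scaling (0.0731) and with limma-voom (0.0838).

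The remaining pathway genes that rose at 3 days were Ikbke and Slfn9. Ikbke, a kinase that phosphorylates Irf3 and Irf7, had 23.1 and 20.8 CPM in uninjured libraries, 39.0, 52.9 and 37.0 CPM at 1 day and 68.1, 53.5 and 66.1 CPM at 3 days, with no overlap between groups. Its log2 fold change was 0.97 (adjusted p = 0.0705) at 1 day and 1.51 (SE 0.26, adjusted p = 0.00528) at 3 days. Slfn9, a Schlafen relative of Slfn2, had 8.39 and 7.11 CPM, then 6.31, 24.2 and 8.13 CPM, then 39.2, 40.2 and 36.4 CPM, a log2 fold change of 2.32 at 3 days (SE 0.51, adjusted p = 0.0206). The 3 day call of Ikbke was lost without uninjured replicate 1 (adjusted p = 0.0693) or 2 (0.0665), and that of Slfn9 without uninjured replicate 1 (0.163) or 2 (0.164) or day 3 replicate 1 (0.0691), 2 (0.0637) or 3 (0.0866).

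**Figure D4:**
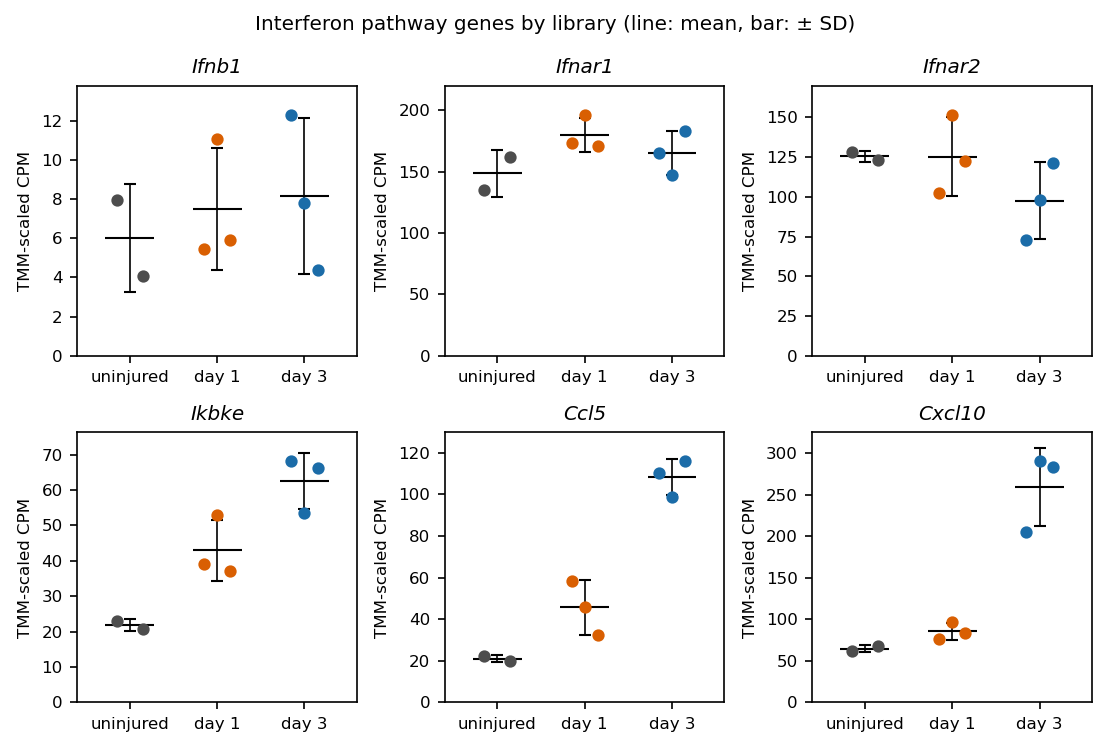
Points are libraries, lines are group means and bars are ± SD of TMM-scaled CPM for a ligand, both receptor chains, a kinase and 2 chemokines of the interferon pathway, on axes starting at 0. Ifnb1 overlaps between groups, and Ikbke, Ccl5 and Cxcl10 do not, with Cxcl10 at 204.7 to 290.0 CPM at 3 days.

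Promoter sequence was not used to list the members. Promoter windows from RefSeq on GRCm38.p6, 250 bases before to 50 after the annotated start, matched 29 of the 40 members, the others being Dhx58, Ifi204, Ifi27l2a, Mx1, Mx2, Oas2, Parp14, Parp9, Rtp4, Usp18 and Zbp1. The core of the interferon-stimulated response element, searched on both strands as GAAANNGAAA with overlapping matches allowed, was in 13 of those 29 (44.8%) and in 3.99% of all 27025 genes with a window. The 98 other pathway genes with a window, which include interferon ligand genes without a row in the count table, had it in 43 (43.9%). Several of those 43 are interferon alpha genes, relatives that lie on the same chromosome. The gamma-activated sequence core TTCNNNGAA, also searched on both strands, was in 7 of 29 members (24.1%) and 9.55% of all genes. A match is a description of letters, not a bound site, and Slfn2 and Trim25 had neither motif in their windows.

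The stretches around the cores of 4 members and of Cxcl10 are shown because the results above give each gene's values and each window holds the element. Rsad2 fell at 1 day and Cxcl10 rose at 3 days, while Ifit1, Ifit3 and Isg15 were not called, and no difference between these genes was tested. Capitals mark every base within a match, each stretch runs 5′ to 3′ on the gene's strand, and the letters are RefSeq's on GRCm38.p6.
Ifit1 (chr19:34640770-34640828, plus strand): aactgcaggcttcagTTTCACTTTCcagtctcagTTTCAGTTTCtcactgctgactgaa
Ifit3 (chr19:34583358-34583431, plus strand): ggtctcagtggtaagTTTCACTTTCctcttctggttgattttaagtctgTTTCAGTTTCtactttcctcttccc
Isg15 (chr4:156200860-156200911, minus strand): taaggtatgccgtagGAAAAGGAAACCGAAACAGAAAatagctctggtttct
Rsad2 (chr12:26456548-26456587, minus strand): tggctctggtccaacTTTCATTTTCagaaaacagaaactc
Cxcl10 (chr5:92349078-92349117, minus strand): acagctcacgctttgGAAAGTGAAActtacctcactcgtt
Ifit1 and Ifit3 each have 2 separate cores read on the opposite strand, Isg15 has 3 overlapping ones, and Rsad2 and Cxcl10 have 1. The stretch of Isg15 begins 93 bases before the annotated start and that of Cxcl10 228 bases before it.

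**Figure D5:**
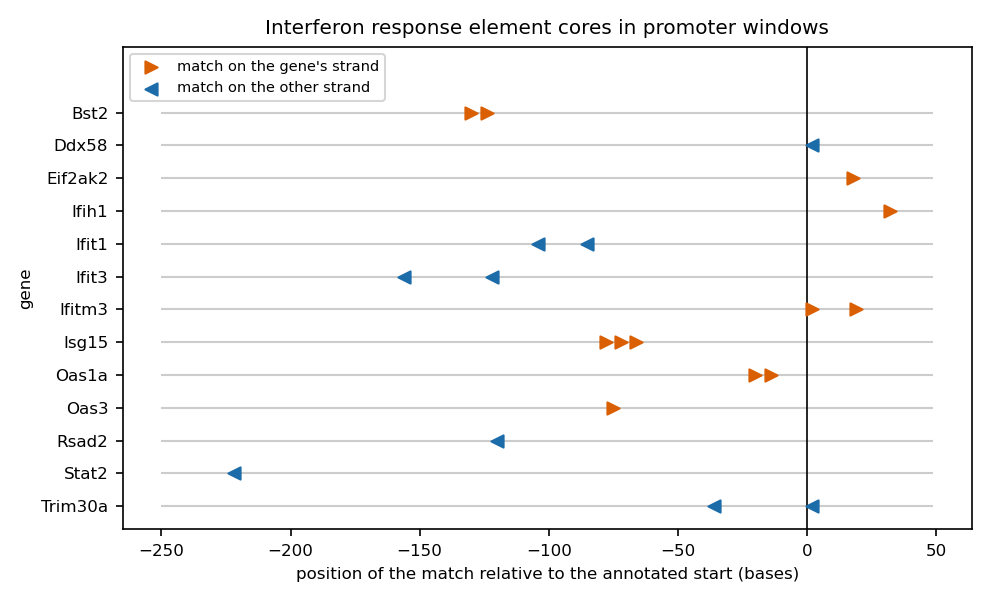
Triangles mark response element cores along the 300 base promoter windows of the 13 members that have at least 1, placed by distance in bases from the annotated start and pointing right for the gene's strand and left for the other. Most cores lie within the 250 bases before the start, and Isg15 has 3 close together.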

How the data were processed

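The authors deposited raw read counts per Ensembl gene, 1 column for each of the 8 libraries; per the labels' protocols, RNA was linearly amplified before library construction. The submitters' processing notes name FastQC, STAR, HTSeq and the mouse build mm9; no version, annotation or strand setting is given in the sources used here. Symbols and exon lengths came from GENCODE M21, whose build differs, so the only coordinates given are those of RefSeq promoters on GRCm38.p6. IDs without a symbol took 0.127% of counts. The members and lists were chosen with earlier results of these data known.

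Genes passing edgeR's filterByExpr (17390, all 40 members among them) were scaled by TMM, and a mean for each of the 3 groups was fitted across the 8 libraries with the robust quasi-likelihood method of edgeR 4.0.16 (R 4.3.3). A gene was called, and said to rise or fall, at an adjusted p under 0.05. The SE is the log2 fold change divided by the square root of F. No pair of libraries within a group agreed within sampling noise (chi-square per degree of freedom 31.4 to 64.8). The procedure was also run on simulated counts with known fold changes. Its outcome is not reported here, so the share of true changes that the test would find is not given. Values per library were printed for members called in any comparison, the 4 with the smallest p in each, and the 4 highest per exon length; pathway genes named were the called ones (at most 6 per comparison) and 12 listed genes, of which 1 is not reported here. Alternatives were RLE factors, library size alone, no filter, DESeq2 1.42.0, limma-voom (limma 3.58.1), the replicate number as a block, and each library left out.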

Additional observations from a re-analysis of the deposited data

How the results depend on the processing

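Cxcl10 and Ccl5 at 3 days, and Cxcl10, Ccl5, Jak1 and Stat3 between the times, kept their call under all 14 alternatives, and no called gene named in the text changed direction under any of them. Slfn2 lost its 1 day call in 9 of 14 and its 3 day call in 2, Rsad2 at 1 day in 6, Trim25 at 3 days in 4 and Oas2 between the times in 2. The count of members higher at 1 day was 0 with library size alone and 0 with the replicate block. The count of pathway genes called at 1 day was 2 without the filter, 6 with DESeq2, 3 with limma-voom and 2 with the block. At 3 days the members lower numbered 2 with DESeq2 (Oasl1 and Trim25) and 0 with the block (Trim25 adjusted p = 0.0596), and the pathway genes called numbered 7 with DESeq2. Leaving out each library in turn gave 0 to 1 members higher, 0 to 1 lower and 0 to 1 pathway genes at 1 day; 0 to 1, 0 to 1 and 2 to 6 at 3 days; and 0 to 1, 0 to 2 and 5 to 19 between the times. A fit on fewer libraries has less power, and beyond that the cause was not tested. The labels give the groups only replicate numbers, and deviations of same-numbered libraries correlated between −0.07 and 0.09 over genes, so the numbers were not taken to pair the libraries; with the replicate block Slfn2 had an adjusted p of 0.0847 at 1 day. The share of rises among called genes was 53.3% with limma-voom at 1 day, and 59.5% without the filter and 80.4% with the block at 3 days. Precision was lowest for scarce members: Oas3 had 39 and 9 counts in the uninjured libraries and a 95% interval of −2.93 to 2.19 at 1 day, which holds both the counting error and the spread between libraries.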
